A study of Mus musculus with 7 samples.

Results

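Radial glia are the neural stem cells of the developing neocortex, and 10 genes that mark their identity were followed here: *Vim*, *Nes*, *Slc1a3*, *Fabp7*, *Hopx*, *Pax6*, *Emx2*, *Lhx2*, *Ptn* and *Ptprz1*. They were taken by symbol from the 38124 genes of the count table, with no threshold on their values, and all 10 were found by their Ensembl identifiers. The libraries came from cells of mouse embryonic neocortex that expressed a nuclear red fluorescent protein (RFP) at a high level and were isolated by fluorescence-activated cell sorting. In both groups the embryos were heterozygous *Tis21*-CreERT2, in which CreERT2 replaces the first exon of *Tis21*, so that the tamoxifen-induced recombinase acts in the progenitors that express *Tis21*. Embryos were electroporated *in utero* at E13.5 and collected at E15.5, 48 hr later, after tamoxifen had been given to the mothers. The 3 control libraries received a construct whose recombination removes GFP and turns on RFP, and the other 4 received the same construct with Sox9 added in front of RFP. Each library was a pool of cortices from several embryos and mothers, so single animals cannot be resolved.

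Radial glia span the cortical wall with a long process and divide at the ventricle, and they produce basal progenitors and, directly or through them, neurons. Progenitors that commit to the neuronal lineage switch off much of this gene set, whereas basal radial glia retain it after leaving the ventricular surface. The 10 genes cover the intermediate filaments of the radial process (*Vim*, *Nes*), glial transport and lipid-binding proteins (*Slc1a3*, *Fabp7*), a homeodomain-only protein used as a marker of outer radial glia (*Hopx*), transcription factors of the dorsal telencephalon (*Pax6*, *Emx2*, *Lhx2*) and a secreted growth factor with its receptor phosphatase (*Ptn*, *Ptprz1*).

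The stretches upstream of 4 of the genes that were lower in the libraries labelled Sox9 are shown, since SOX proteins and the Notch effector RBPJ act through short motifs that can be searched there. The sequences come from RefSeq (GRCm38.p6), in which all 10 genes were matched to 13 start sites, each with the 250 bases before the start. They are given 5′ to 3′ on the gene's strand, without bases that belong to an annotated exon, and capitals mark the RBPJ core TGGGAA on either strand. The stretches lie at chr15:8710808-8711057 (minus strand, *Slc1a3*), chr10:57784673-57784880 (plus strand, *Fabp7*), chr2:105668646-105668895 (plus strand, the first start site of *Pax6*) and chr6:36810221-36810429 (minus strand, *Ptn*).
Slc1a3: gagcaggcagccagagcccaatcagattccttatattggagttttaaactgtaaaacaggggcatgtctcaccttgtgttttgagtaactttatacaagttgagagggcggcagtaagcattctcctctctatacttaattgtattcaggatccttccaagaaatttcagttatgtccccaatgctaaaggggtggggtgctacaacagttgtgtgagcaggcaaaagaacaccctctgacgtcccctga
Fabp7: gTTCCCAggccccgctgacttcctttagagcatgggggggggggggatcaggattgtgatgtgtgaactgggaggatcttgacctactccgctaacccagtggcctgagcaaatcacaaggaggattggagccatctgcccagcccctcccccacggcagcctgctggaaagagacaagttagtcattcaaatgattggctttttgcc
Pax6: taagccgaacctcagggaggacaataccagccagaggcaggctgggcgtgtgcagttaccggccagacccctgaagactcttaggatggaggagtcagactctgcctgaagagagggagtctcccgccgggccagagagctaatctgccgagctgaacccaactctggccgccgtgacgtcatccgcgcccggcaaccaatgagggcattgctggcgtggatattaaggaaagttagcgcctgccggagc
Ptn: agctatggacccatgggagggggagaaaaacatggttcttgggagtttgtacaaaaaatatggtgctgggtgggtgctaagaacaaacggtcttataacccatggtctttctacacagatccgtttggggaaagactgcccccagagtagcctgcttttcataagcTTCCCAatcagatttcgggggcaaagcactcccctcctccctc
The RBPJ core was found in the windows of *Fabp7*, *Emx2*, *Ptn* and, at both start sites, *Lhx2*, which made 5 of the 13 windows, against 21.6% of all 32851 promoter windows of the same length. Either of the SOX cores AACAAT and ACAAAG, searched on both strands, was found in 2 of the 13 windows, against 24.0% of all windows. These were the second start site of *Pax6*, 154 bases before the start, and the first start site of *Hopx*, 179 bases before it. A match is only a run of letters in these windows, and binding was not measured.

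Sequencing depth was 10465562 to 12907778 counts in the control libraries and 4429704 to 10520214 in the libraries labelled Sox9. Fewer genes had a count in the controls (23387 to 23791) than in the libraries labelled Sox9 (24219 to 27370), and the mitochondrial share was 0.423% to 0.652% and 0.582% to 0.992%. *Sox9* itself did not separate the groups as the construct names would have it, with counts of 362, 1026 and 668 in the controls and 370, 435, 277 and 177 in the libraries labelled Sox9. This was 63.9 ± 27.5 (SD, n = 3) and 40.0 ± 8.33 (SD, n = 4) CPM, the counts of a library scaled to its size, and the edgeR adjusted p of the log2 fold change of -0.68 was 0.0493. The group names below therefore stand for the labels.

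Among the radial glia genes, 5 were lower in the libraries labelled Sox9: *Vim*, *Slc1a3*, *Fabp7*, *Pax6* and *Ptn*, each at 39.8% to 45.2% of its control mean. *Nes*, *Emx2*, *Lhx2* and *Ptprz1* had negative fold changes that did not pass the test, and *Hopx* had too few counts to be tested. Of all 16522 genes that passed the filter on low counts, 3.43% were lower and 11.3% were higher by the same rule, an adjusted p under 0.01 in edgeR's quasi-likelihood test. DESeq2 called 5.44% of genes lower and 8.49% higher, and 4 of the radial glia genes lower. The number of radial glia genes called higher was 0 by edgeR (also 0 at an unadjusted p under 0.05), 0 by DESeq2 and 0 by limma. The median log2 fold change was -1.14 over the 9 genes and -0.0031 over all genes tested. Since RNA was measured over a sorted population, fewer cells of a type and less RNA per cell cannot be told apart.

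**Figure D1:**
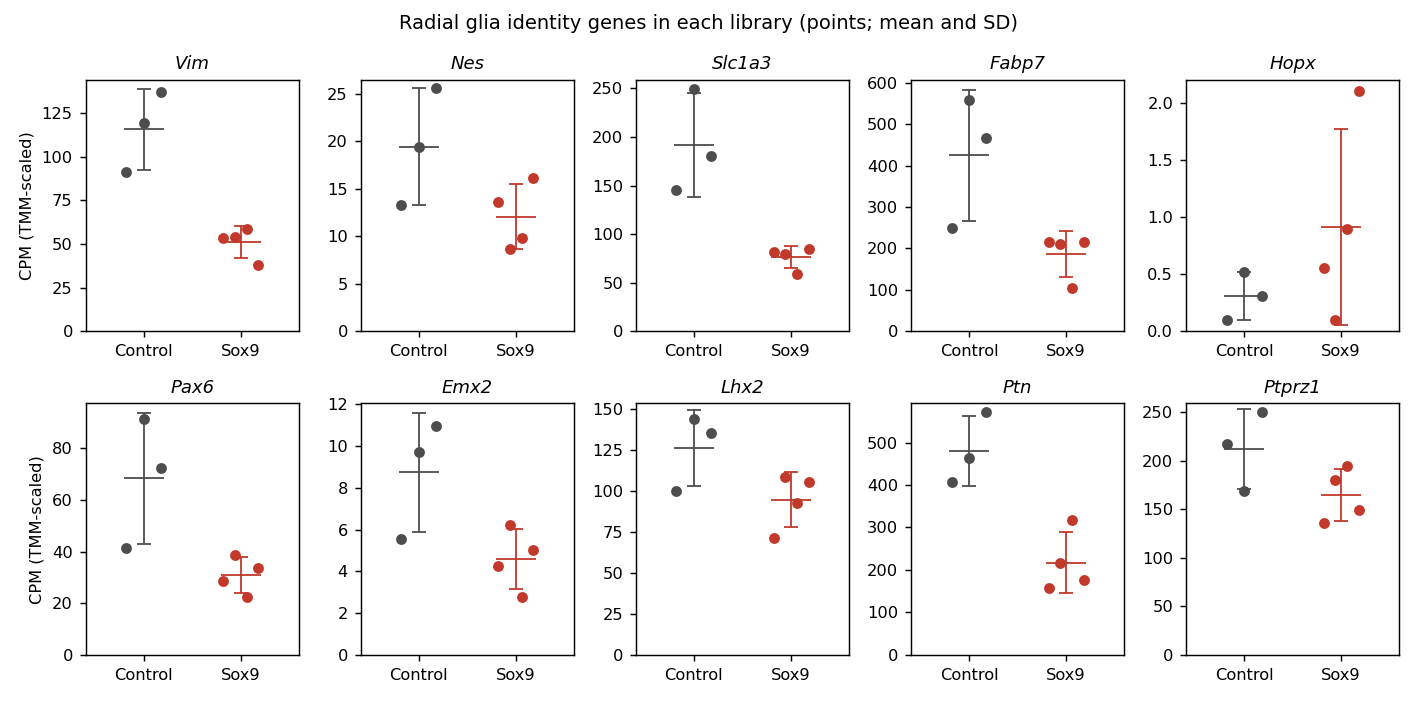
Each panel gives 1 gene, with CPM scaled by TMM on the vertical axis and the 3 control and 4 Sox9-labelled libraries as points, lines for the mean and bars for the SD. The groups do not overlap for *Vim*, *Slc1a3*, *Fabp7*, *Pax6* and *Ptn*, whereas they overlap for the other 5 genes.

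*Vim* (ENSMUSG00000026728, chr2:13573927-13582826 of mm10, plus strand) encodes vimentin, the main intermediate filament protein of radial glia. Its levels were 91.1, 119 and 137 CPM in the controls and 53.7, 54.1, 58.9 and 38.2 CPM in the libraries labelled Sox9. Every library labelled Sox9 lay below every control, as was the case, in that direction, for 16.4% of all genes tested. The mean was 116 ± 23.3 CPM (SD, n = 3) in the controls and 51.2 ± 9.01 CPM (SD, n = 4) in the libraries labelled Sox9, a log2 fold change of -1.17 (SE 0.16, edgeR adjusted p = 0.000334).

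*Nes* (ENSMUSG00000004891, chr3:87971078-87980451, plus strand) encodes nestin, which assembles with vimentin. Its levels were 13.3, 19.4 and 25.6 CPM in the controls and 13.6, 8.69, 9.84 and 16.1 CPM in the libraries labelled Sox9. The groups overlapped, since replicates 1 and 4 labelled Sox9 lay above the lowest control. The log2 fold change of -0.71 (SE 0.26) did not pass the test (edgeR adjusted p = 0.0512).

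*Slc1a3* (ENSMUSG00000005360, chr15:8634124-8710764, minus strand) encodes the glutamate transporter GLAST. Its levels were 145, 249 and 181 CPM in the controls and 81.3, 79.2, 59.4 and 85.1 CPM in the libraries labelled Sox9, with no overlap. It fell by a log2 fold change of -1.33 (SE 0.17, edgeR adjusted p = 0.000213), from 192 ± 53.1 CPM (SD, n = 3) to 76.2 ± 11.5 CPM (SD, n = 4).

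*Fabp7* (ENSMUSG00000019874, chr10:57784881-57788450, plus strand) encodes the brain fatty acid binding protein, also called BLBP, a Notch target in radial glia. Its levels were 251, 559 and 467 CPM in the controls and 216, 212, 104 and 216 CPM in the libraries labelled Sox9. The groups did not overlap, although control replicate 1 was close to the 3 highest libraries labelled Sox9. The mean was 426 ± 158 CPM (SD, n = 3) and 187 ± 55.2 CPM (SD, n = 4), a log2 fold change of -1.19 (SE 0.25, edgeR adjusted p = 0.00392). *Fabp7* ceased to pass the test without control replicate 2 (adjusted p = 0.0192) and without control replicate 4 (adjusted p = 0.0134). In all it passed in 9 of the 20 other settings, among them neither DESeq2 (adjusted p = 0.0113) nor library totals (0.0106).

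*Hopx* (ENSMUSG00000059325, chr5:77086988-77115121, minus strand) was near the limit of detection, with counts of 1, 6 and 3 in the controls and 4, 1, 8 and 10 in those with the Sox9 label. The filter on low counts removed it, and it had no row in the table of normalized values. In CPM it was 0.307 ± 0.213 (SD, n = 3) in the controls and 0.909 ± 0.857 (SD, n = 4) with the Sox9 label, and the groups overlapped (exact permutation test over samples, two-sided, p = 0.314). A difference in *Hopx* was not detectable at this depth.

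*Pax6* (ENSMUSG00000027168, chr2:105668900-105697364, plus strand) encodes the paired-box transcription factor that controls the neurogenic programme of cortical radial glia. Its levels were 41.3, 91.5 and 72.5 CPM in the controls and 28.6, 38.7, 22.6 and 33.8 CPM in the libraries labelled Sox9. Control replicate 1 was the lowest control and lay just above replicate 2 labelled Sox9, so the groups did not overlap. The mean was 68.4 ± 25.4 CPM (SD, n = 3) and 30.9 ± 6.94 CPM (SD, n = 4), a log2 fold change of -1.15 (SE 0.23, edgeR adjusted p = 0.00314). *Pax6* did not pass the test without control replicate 2, control replicate 4 or replicate 3 labelled Sox9, where the adjusted p was 0.0197, 0.0114 and 0.0124, and passed in 12 of the 20 other settings.

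*Emx2* (ENSMUSG00000043969, chr19:59458372-59465357, plus strand) encodes a homeodomain factor that patterns the cortex. Its levels were 5.54, 9.73 and 11.0 CPM in the controls and 4.26, 6.24, 2.79 and 5.03 CPM in the libraries labelled Sox9. Only control replicate 1 and replicate 2 labelled Sox9 crossed. The log2 fold change of -0.93 (SE 0.33) had an edgeR adjusted p of 0.0425 and did not pass.

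*Lhx2* (ENSMUSG00000000247, chr2:38339281-38369733, plus strand) encodes a LIM-homeodomain factor that specifies cortical identity. Its levels were 99.8, 144 and 135 CPM in the controls and 71.6, 109, 92.9 and 106 CPM in the libraries labelled Sox9. The groups overlapped, with replicates 2 and 4 labelled Sox9 above control replicate 1. The log2 fold change was -0.41 (SE 0.16), with an edgeR adjusted p of 0.0596.

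Antisense genes overlap several of these loci, and whether reads were counted by strand is not given in the sources used here. *Pax6os1* held 39 counts summed over the controls and 11 over the libraries labelled Sox9, against 2198 and 981 for *Pax6*. *Emx2os* held 59 and 94 counts, against 278 and 146 for *Emx2*, and so made up a larger part of the 2 together in the libraries labelled Sox9. *Gm13584* at *Lhx2* held 11 and 7 counts and *Hopxos* held 1 and 2.

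*Ptn* (ENSMUSG00000029838, chr6:36714929-36810220, minus strand) encodes pleiotrophin, a secreted heparin-binding growth factor. Its levels were 407, 463 and 571 CPM in the controls and 158, 216, 318 and 177 CPM in the libraries labelled Sox9. The groups did not overlap, with replicate 3 labelled Sox9 closest to the controls. The mean was 480 ± 83.1 CPM (SD, n = 3) and 217 ± 71.5 CPM (SD, n = 4), a log2 fold change of -1.14 (SE 0.20, edgeR adjusted p = 0.00116).

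*Ptprz1* (ENSMUSG00000068748, chr6:22875502-23052916, plus strand) encodes the receptor-type phosphatase to which pleiotrophin binds. Its levels were 218, 169 and 250 CPM in the controls and 136, 180, 195 and 150 CPM in the libraries labelled Sox9. Control replicate 2 lay within the range of the libraries labelled Sox9. The log2 fold change of -0.36 (SE 0.15) did not pass (edgeR adjusted p = 0.0810).

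The log2 fold changes of the 9 genes thus ranged from -1.33 to -0.36. Since the ratio of 2 genes within a library does not depend on how libraries are scaled, such ratios were also read. Ratios were compared for 5 pairs with related roles, which were chosen with the values known. *Ptn* had 1.87, 2.74 and 2.28 times the counts of *Ptprz1* in the controls and 1.17, 1.20, 1.64 and 1.18 times in the libraries labelled Sox9. The groups did not overlap, and the log2 ratio differed by -0.82 (two-sided exact permutation p = 0.0286, the lowest this permutation test can give for 3 against 4 libraries, and 0.143 after adjustment over the 5 pairs). The log2 ratio of *Pax6* to *Lhx2* was -0.94 ± 0.31 (SD, n = 3) and -1.62 ± 0.31 (SD, n = 4), also without overlap (exact p = 0.0571, adjusted p = 0.143). The permutation test cannot reach the threshold of 0.01 used for genes, so the ratios are given as values. The differences for *Vim* to *Nes* (-0.50), *Pax6* to *Emx2* (-0.17) and *Slc1a3* to *Fabp7* (-0.14) had exact p of 0.314, 0.429 and 0.514.

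**Figure D2:**
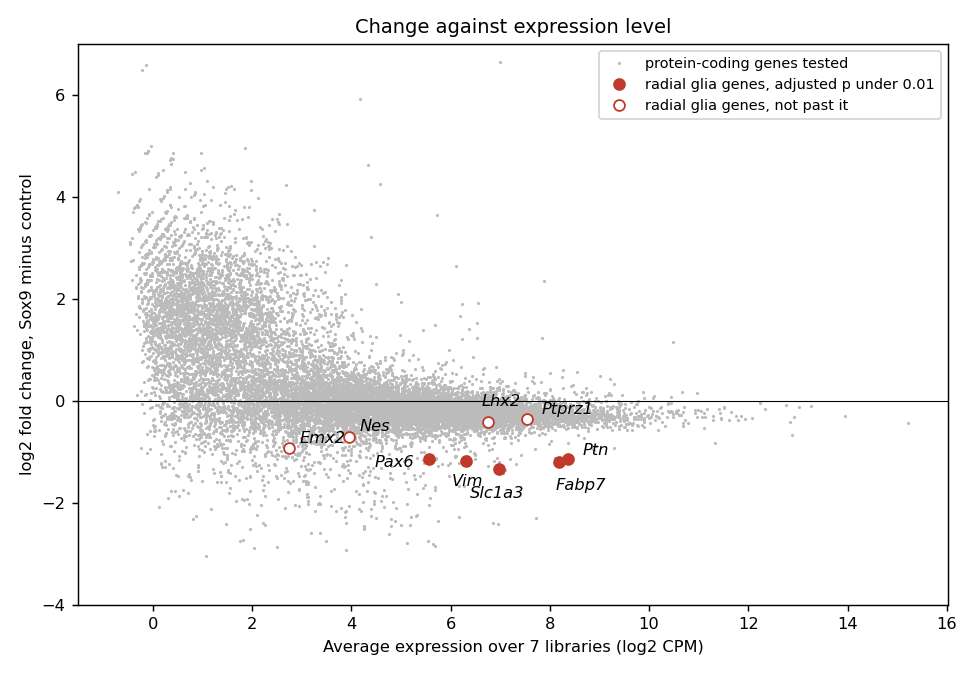
Each point is a protein-coding gene, with its average expression over the 7 libraries (log2 CPM) on the horizontal axis and its log2 fold change, libraries labelled Sox9 minus controls, on the vertical axis. The 9 radial glia genes tested are drawn as circles, filled where the adjusted p was under 0.01, and all 9 lie below 0.

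Fold changes in these libraries varied with expression level, so the 9 genes were also set beside protein-coding genes between the lowest and the highest of them in average expression (log2 CPM of 2.74 to 8.37). Of these 8626 genes, 5.56% were lower and 2.71% higher by the same rule, their median log2 fold change was -0.19 and 72.3% were negative. The groups did not overlap, with the libraries labelled Sox9 lower, for 25.9% of them. The 5th percentile of their fold changes was -0.705, and 7 of the 9 radial glia genes lay below it, with *Lhx2* and *Ptprz1* above. Of the 7, *Nes* (-0.707, SE 0.26) lay almost on it, and *Nes* and *Emx2* had not passed the test. Of the 7147 genes tested below this range of expression, of any biotype, 22.4% were higher.

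Summed over the 10 genes, the level was 1272, 1825 and 1851 CPM in the controls and 764, 903, 865 and 828 CPM in the libraries labelled Sox9. Per kilobase of annotated exon, *Fabp7* was the most abundant in the controls, at 341 ± 127 CPM per kb (SD, n = 3), followed by *Ptn* at 140 ± 24.2. *Lhx2* (28.7 ± 5.29), *Vim* (24.4 ± 4.91), *Slc1a3* (22.5 ± 6.22) and *Ptprz1* (14.9 ± 2.88) followed, and the ranges of neighbours in this order overlapped. *Pax6* (5.85 ± 2.17), *Nes* (3.03 ± 0.962) and *Emx2* (2.92 ± 0.949) formed a lower tier with overlapping neighbours, and *Hopx* was the least abundant at 0.203 ± 0.140.

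In the libraries labelled Sox9, *Fabp7* (149 ± 44.2 CPM per kb, SD, n = 4) and *Ptn* (63.3 ± 20.8) were again the most abundant, but their ranges now overlapped. *Lhx2* (21.6 ± 3.84) was separate from its neighbours. *Ptprz1* (11.6 ± 1.90) stood before *Vim* (10.8 ± 1.90) and *Slc1a3* (8.93 ± 1.35) in the order of means, with overlapping ranges. *Pax6* (2.64 ± 0.593), *Nes* (1.88 ± 0.535), *Emx2* (1.53 ± 0.480) and *Hopx* (0.599 ± 0.565) came last, each overlapping the next. Whether reads in introns were counted is not given, which limits levels set between genes more than changes of 1 gene. The order also depends on the length used. In the deposited normalized values (FPKM), which matched the whole span of these genes, *Vim* stood above *Ptn*. The control values there were 9.24, 12.0 and 14.5 for *Vim* and 3.86, 4.33 and 5.63 for *Ptn*.

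**Figure D3:**
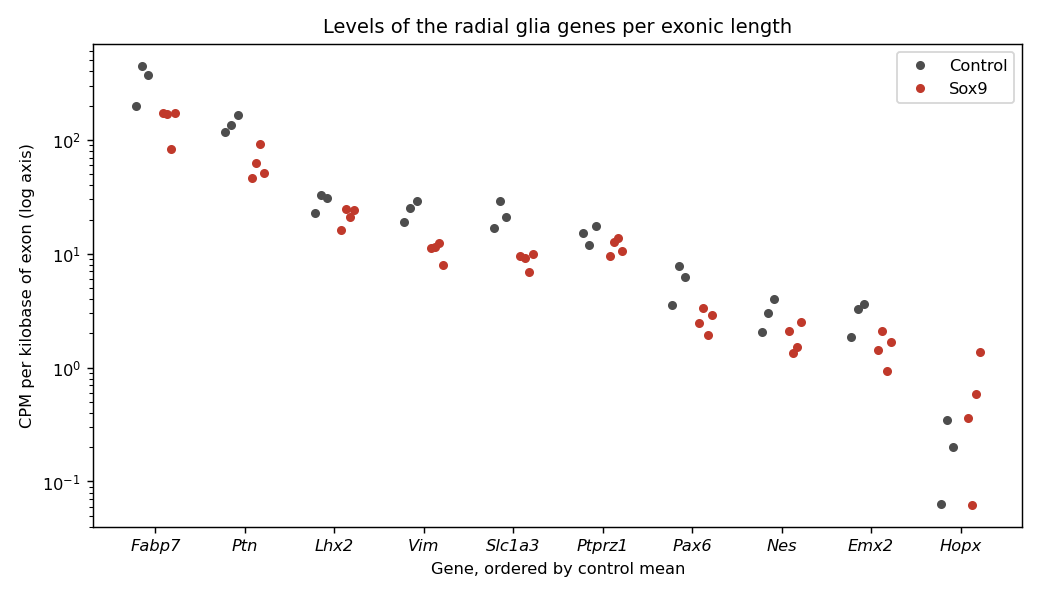
Points are the 7 libraries, with CPM per kilobase of exon on a logarithmic vertical axis and the 10 genes ordered by their control mean on the horizontal axis. *Fabp7* and *Ptn* are the 2 highest genes in both groups and *Hopx* is the lowest, with a control mean of 0.203.

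The profile of each gene over the 7 libraries was compared with those of 14266 other protein-coding genes, by the distance between log2 CPM profiles centred on their means. The nearest gene was *Gli2* for *Pax6* (distance 0.29), *Siva1* for *Vim* (0.35), *Cpa4* for *Nes* (0.19), *Cdc45* for *Slc1a3* (0.23) and *Ednrb* for *Fabp7* (0.44). It was *Nxt2* for *Emx2* (0.49), *Cbr4* for *Lhx2* (0.16), *Hs3st1* for *Ptn* (0.30) and *Rhobtb3* for *Ptprz1* (0.21). Among the radial glia genes, *Pax6* and *Emx2* were closest to each other (0.51), and *Fabp7* (0.54) and *Slc1a3* (0.57) were each closest to *Pax6*. *Vim* and *Ptn* were closest to each other (0.66), as were *Lhx2* and *Ptprz1* (0.78), and *Nes* was closest to *Lhx2* (1.08). *Fabp7* and *Ptprz1* were the farthest apart (1.95). Of the 14266 genes, 3289 lay closer to *Lhx2* than its nearest radial glia gene, 3474 closer to *Ptprz1* and 2065 closer to *Nes*. This number was 44 for *Vim*, 36 for *Slc1a3*, 13 for *Ptn*, 6 for *Pax6*, 5 for *Fabp7* and 1 for *Emx2*. The median distance to all genes was 1.16 for *Lhx2*, 1.11 for *Ptprz1* and 1.52 for *Nes*. These distances hold the group difference and the depth of the same 7 libraries, and they are given as a description.

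**Figure D4:**
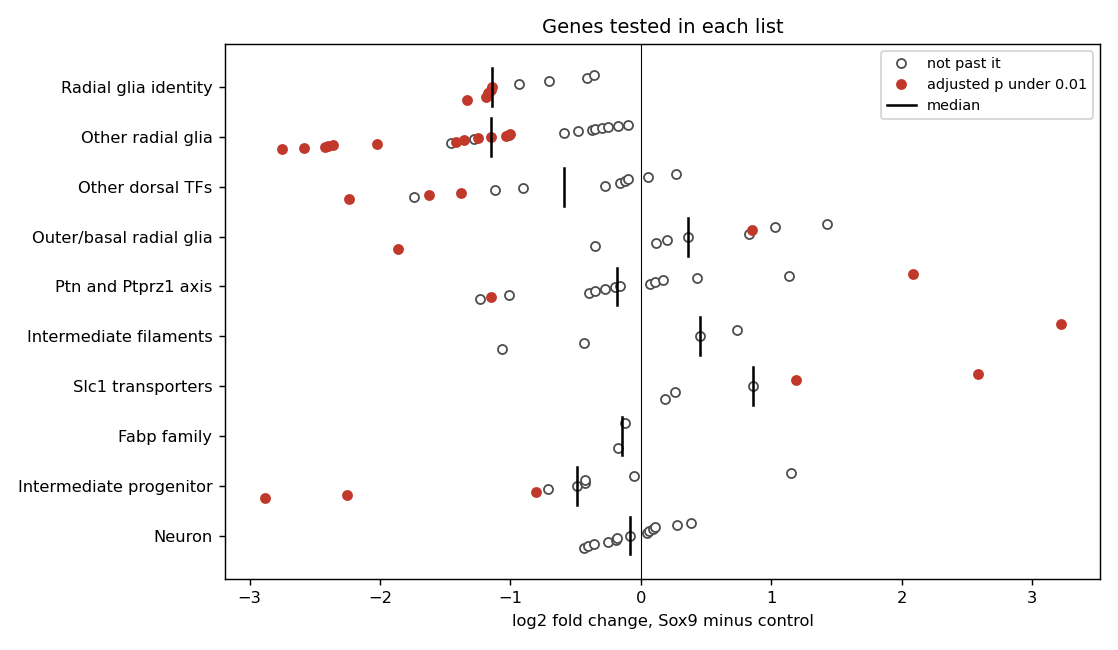
Points are the genes tested in each list, with the log2 fold change, libraries labelled Sox9 minus controls, on the horizontal axis, filled where the adjusted p was under 0.01 and with a bar at the median. The radial glia genes and the other radial glia genes lie wholly below 0, whereas neuron markers lie on both sides of it.

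A list of 23 other radial glia genes, chosen with earlier results of these data known, was read beside the 10. All 23 were tested, 12 were lower and all 23 had a negative fold change, with a median log2 fold change of -1.15. Of all genes tested, 3.43% were lower by the same rule. Of protein-coding genes in the expression range of the 9 genes tested above, 72.3% were negative. The smallest p were those of *Tnc*, an extracellular matrix glycoprotein (89.4 to 13.4 CPM, log2 fold change -2.75), *Aldoc*, the brain form of aldolase (230 to 42.6 CPM, -2.42), and *Mfge8*, a secreted milk-fat globule protein (98.3 to 18.9 CPM, -2.36). None was higher by edgeR, also at an unadjusted p under 0.05, nor by DESeq2 or limma. With each library left out in turn, 9 to 14 genes of the list were lower, beside 1.2% to 2.74% of all genes.

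Of 13 other dorsal telencephalic transcription factors, 12 were tested and 3 were lower, with a median log2 fold change of -0.59. These were *Gli3*, an effector of Hedgehog signalling (-1.63), *Tfap2c* (-2.24) and *Sp8* (-1.38), the last of which did not pass a test against a 1.5-fold change. Of 11 genes reported in outer or basal radial glia, 9 were tested, 2 of which had a negative fold change, and the median log2 fold change was 0.37. Of these 9, *Pdpn*, a membrane glycoprotein, was lower (40.7 to 11.4 CPM, log2 fold change -1.86) and *Lifr*, the receptor of leukaemia inhibitory factor, was higher (59.8 to 108 CPM, 0.86, edgeR adjusted p = 0.00789). *Lifr* did not pass when control replicate 1 or 4, or replicate 1 or 2 labelled Sox9, was left out (adjusted p up to 0.0272). *Bmp7* had 0.946 ± 0.639 CPM (SD, n = 3) and 2.51 ± 2.11 CPM (SD, n = 4), with overlap.

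Among 14 tested ligands, receptors and partners of the pleiotrophin axis, with a median log2 fold change of -0.18, the paralogue of *Ptn*, midkine (*Mdk*), was lower, with 168, 233 and 240 CPM in the controls and 75.5, 105, 90.9 and 115 CPM in the libraries labelled Sox9. The fall of *Mdk* (log2 fold change -1.15, SE 0.16, edgeR adjusted p = 0.000291) was close in size to that of *Ptn* (-1.14). *Alk*, a receptor tyrosine kinase for both ligands, was higher, from 1.29 to 5.49 CPM (log2 fold change 2.09, edgeR adjusted p = 0.00312), but not without control replicate 1, control replicate 2 or replicate 3 labelled Sox9 (adjusted p up to 0.0146). *Cntn1*, a partner of *Ptprz1*, had 12.7 and 27.9 CPM and did not pass as reported (edgeR adjusted p = 0.0142). Its call depended on the setting, since it passed without control replicate 1 (adjusted p = 0.00523). It also passed with DESeq2, library totals, no filter or the titles' replicate numbers as a block, and not in the other settings.

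Relatives of the glial proteins were read in the same way. Of 5 other *Slc1* transporters tested (median of 0.86 on the log2 scale), *Slc1a2*, which encodes GLT-1, was higher, from 4.10 ± 0.318 CPM (SD, n = 3) to 9.39 ± 0.804 CPM (SD, n = 4), while *Slc1a3* fell (log2 fold change 1.19 against -1.33). Leaving out any 1 control library ended that call (adjusted p up to 0.0189). *Slc1a7* was also higher, with counts of 1, 2 and 4 against 16, 15, 11 and 3, and lost its call in the same way (adjusted p up to 0.0446). *Slc1a1* had 19.0 and 34.4 CPM with overlapping groups (edgeR adjusted p = 0.0316, and 0.00701 without control replicate 1).

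*Fabp5*, the relative of *Fabp7* expressed in the same progenitors, had 217 ± 22.6 CPM (SD, n = 3) and 200 ± 36.7 CPM (SD, n = 4), with overlapping groups (log2 fold change -0.12, SE 0.14, edgeR adjusted p = 0.548). *Fabp3* had 9.87 and 8.82 CPM (edgeR adjusted p = 0.633), and neither passed at an unadjusted p under 0.05 or by DESeq2 or limma. Of 5 other intermediate filament genes tested (median of 0.45 on the log2 scale), *Des* was higher, with counts of 5, 1 and 5 against 28, 21, 36 and 18 (edgeR adjusted p = 0.00138), although not with cyclic loess and limma-trend. *Nefl* had 29.9, 9.04 and 7.32 CPM in the controls and 4.94, 5.39, 13.2 and 5.66 CPM in the other group, and its log2 fold change of -1.06 (edgeR adjusted p = 0.0819) was -0.17 without control replicate 1. *Nefl* and *Ina* (64.2 and 87.6 CPM) had overlapping groups. *Gfap*, the astrocyte filament, had counts of 2, 0 and 1 in the controls and 8, 6, 3 and 2 in the libraries labelled Sox9 and was too low to test.

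Markers of other cell types were read in the same libraries. Intermediate progenitor markers summed to 511 to 635 CPM in the controls and 324 to 393 CPM in the libraries labelled Sox9, and 3 of 9 were lower. *Eomes*, the defining transcription factor of these cells, had 25.2, 42.9 and 44.5 CPM in the controls and 9.75, 6.14, 8.61 and 6.92 CPM in the libraries labelled Sox9 (log2 fold change -2.25, edgeR adjusted p = 4.87e-05). Neuron markers summed to 14742 to 18592 CPM and 13716 to 15952 CPM, and the sorted cells of both groups held high levels of *Tubb3* (7186 ± 874 CPM, SD, n = 3, and 6800 ± 756 CPM, SD, n = 4). None of the 13 neuron markers passed the edgeR test, 4 had an unadjusted p under 0.05 with a negative fold change, and DESeq2 called 1 of them lower.

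Of 42 tested markers of lineages outside the excitatory one, 12 were higher in the libraries labelled Sox9. In all, 38 of the 42 lay below the expression range of the radial glia genes, and 11 of these 38 (28.9%) were higher, close to the 22.4% of all genes at such levels. Oligodendrocyte precursor markers summed to 0.814 to 1.56 CPM in the controls and 9.73 to 27.9 CPM in the libraries labelled Sox9, and 4 of 5 tested were higher. *Olig2*, their defining factor, had counts of 0, 2 and 0 against 24, 6, 12 and 7 (edgeR adjusted p = 0.00371, up to 0.0153 without control replicate 1 or 4). Choroid plexus markers summed to 1.34 to 1.74 CPM and 10.02 to 15.5 CPM, with 3 of 4 higher. The corresponding ranges were 6.12 to 14.3 and 18.9 to 49.2 CPM for endothelial markers (2 of 7 higher), 9.37 to 11.3 and 16.7 to 31.3 CPM for mural and meningeal markers (1 of 7) and 4.61 to 6.02 and 8.50 to 13.9 CPM for ventral interneuron markers (0 of 3 in edgeR, 1 at an unadjusted p under 0.05 and 0 by DESeq2 and limma).

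The ranges overlapped for microglia markers, 12.0 to 41.1 and 20.6 to 74.0 CPM (1 of 10 higher), and for erythroid markers, 2.20 to 24.9 and 15.0 to 94.8 CPM (1 of 6). Astrocyte markers, which radial glia share in part, summed to 62.4 to 115 CPM in the controls and 38.5 to 70.9 CPM in the libraries labelled Sox9, with 1 of 6 lower and 1 higher. *S100b* had counts of 1, 1 and 6 against 24, 15, 10 and 7 (edgeR adjusted p = 0.00966), a call that ended when any library except control replicate 4 was left out (adjusted p up to 0.0457). *Aqp4* had counts of 2, 12 and 4 against 6, 5, 13 and 4. No marker was at 0 in all 7 libraries. The part of these cell types, and of the gap in depth and detected genes, in the fall of the radial glia genes was not tested.

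**Figure D5:**
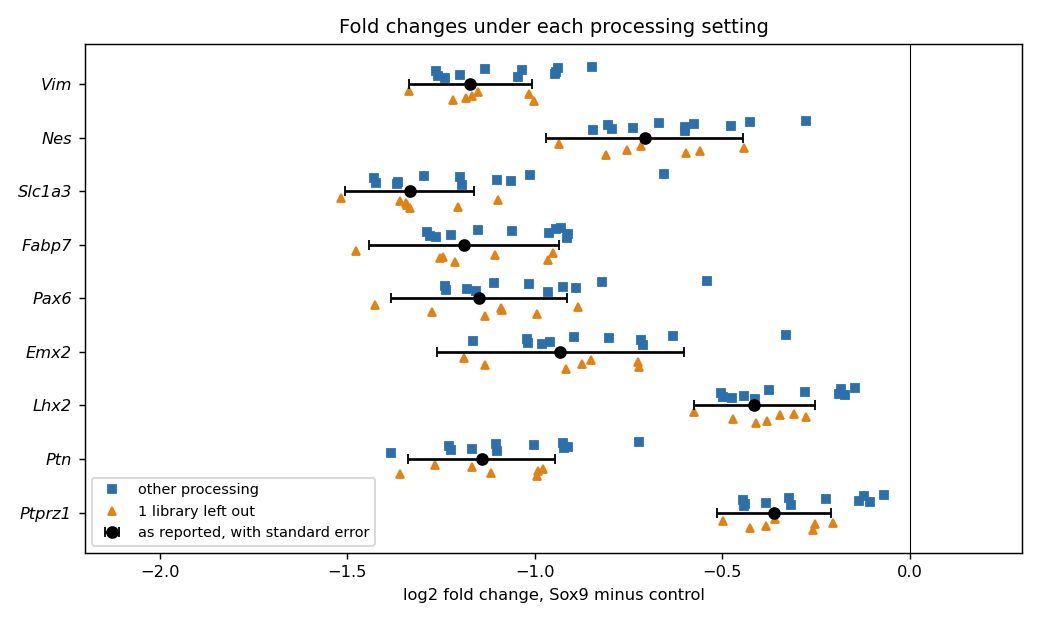
The log2 fold change of each gene tested is shown on the horizontal axis as reported (circle, with its SE), under other processing (squares) and with 1 library left out (triangles). Every value is below 0, and *Ptprz1* and *Lhx2* come closest to 0.

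The fold changes of all 9 genes stayed negative under every setting run, but the calls did not all hold. With cyclic loess scaling and limma-trend together, *Vim* and *Slc1a3* were the 2 genes lower, where 1.72% of all genes were. The log2 fold changes of *Pax6*, *Fabp7* and *Ptn* were then -0.89, -0.91 and -0.92 (limma adjusted p = 0.0349, 0.0453 and 0.0127). With limma on log2(FPKM + 0.1), 0 of the 9 and 0.0147% of all genes were lower. Of the 9, 5 had an unadjusted p under 0.05, a count with no share of all genes to set beside it. Leaving out control replicate 2 or control replicate 4 left 3 genes lower, namely *Vim*, *Slc1a3* and *Ptn*, beside 1.2% and 1.55% of all genes.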

How the data were processed

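The authors sequenced RNA of 7 libraries of sorted High RFP cells, with poly-dT priming, template switching and PCR but no molecular identifiers. The lists and the 10 genes were chosen with earlier results of these data known. The authors aligned reads to mm10 with STAR 2.5.2b and deposited raw counts per Ensembl gene, the counting program being not given in the sources used here. The deposited FPKM values, which the authors scaled per kilobase, matched the whole span of the gene within 2% for 91.8% of 6894 genes checked and its exonic length for 1.80%. GENCODE annotation of GRCm38, the same assembly but a later gene release, gave symbols, exons and coordinates.

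Groups and replicate numbers followed the sample titles, where the controls are 1, 2 and 4, whereas the descriptions call the last of them biological replicate 3. P-values measure the spread between these pooled libraries. Counts were tested with edgeR 4.0.16 (TMM scaling, filterByExpr, quasi-likelihood test, two-sided, no covariate) in R 4.3.3, with Benjamini-Hochberg adjustment of p over the 16522 genes tested. CPM are counts over TMM-scaled library sizes. The exact permutation test of single values enumerated all 35 ways to assign 3 and 4 libraries to the groups. Every gene of the 10 is named, and of each other list the 3 genes with the smallest p together with *Mdk*, *Gfap*, *Slc1a2* and *Fabp5*. Of other cell types the named genes are *Eomes*, *Tubb3*, *Olig2*, *Gfap*, *Aqp4* and *S100b*, with *Aldh1l1* added once its values were known. Alternatives used DESeq2 1.42.0, limma 3.58.1, other filters, scalings and thresholds, and leaving out each library, and the scripts were tested on simulated data. Depth was 4429704 to 12907778 counts per library. No 2 libraries of the same group agreed within sampling noise.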

Additional observations from a re-analysis of the deposited data

Results flagged for a closer look

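In 3 of 15 values examined over the 4 libraries labelled Sox9, replicate 3 stood apart from the other 3 by more than Dixon's 95% critical value for 4 samples. Its *Fabp7* level was 104 CPM, whereas the others lay at 212 to 216 CPM. Its log2 ratio of *Ptn* to *Ptprz1* was 0.71, above the other 3 (0.22 to 0.26), and its log2 ratio of *Slc1a3* to *Fabp7* was -0.81, above the other 3. Chance flags about 1 in 20 groups, the last of these values contains the same *Fabp7* level as the first, and no explanation was tested. Without this library *Fabp7* passed the edgeR test.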

How the results depend on the processing

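As reported, 5 of the 9 genes tested were lower and 0 were higher. The fold changes of these 9 stayed negative, and 0 genes were higher, under every alternative run. The number lower was 2 with cyclic loess and limma-trend (*Vim*, *Slc1a3*), 2 with a test against a 1.5-fold change (*Vim*, *Slc1a3*, beside 0.866% of all genes), 3 with at least 10 counts in every library (beside 1.77%), 8 with no filter (adding *Nes*, *Emx2* and *Lhx2*, where 4.47% of all genes were lower), and 0 with limma on log2(FPKM + 0.1) and 0 on log2(FPKM + 1), where 4 and 0 of all 27246 genes were lower. The cause of each shift was not tested. The median log2 fold change was -0.54 with log2(FPKM + 1), a scale that compresses low values. Without 1 library each, 3 to 5 genes were lower (beside 1.2% to 2.74% of all genes) and the median was -1.26 to -0.88. DESeq2 and library totals gave 4 without *Fabp7* (5.44% and 1.36% of all genes), DESeq2 size factors in edgeR and protein-coding genes alone gave 5 (3.84% and 2.91%), and a threshold of 0.05 gave 6, adding *Emx2* (10.8%). Scaling by library totals moved the median of all genes by 0.23. Fits over other gene sets had other medians, higher by 0.52 without a filter and by 0.55 with DESeq2 (both over 32483 genes) and by 0.21 with log2(FPKM + 0.1). The median of the radial glia genes was -1.12 in both of the first, there over all 10 genes with *Hopx* included. Deviations of same-numbered libraries correlated at -0.036, 0.118 and -0.0048 in the titles, and not every library correlated best with its own number. So few values cannot settle whether the replicate numbers pair the libraries. Fits with a replicate block, by the titles' and by the descriptions' numbers, called 4 lower (without *Fabp7*, beside 1.32% and 2.14% of all genes). They gave medians of -0.91 and -1.04. *Tfap2c*, *Alk*, *Slc1a2*, *Slc1a7*, *Olig2* and *S100b* lost their calls with the block by titles, and *Slc1a2*, *Slc1a7*, *Olig2* and *S100b* also with the block by descriptions. The other radial glia list also had 0 lower on both of these FPKM scales, on which so few genes passed at all, in alternatives chosen after the data were seen. On each scale 11 genes of that list had an unadjusted p under 0.05, again with no share of all genes to set beside it. *Hopx* and other genes with few counts are limited by depth.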
